A study of Sus scrofa with 120 samples.

Results

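Small nucleolar RNAs (snoRNAs) were followed through 48 libraries of pig chondrocytes whose RNA had been freed of ribosomal RNA by hybridization. Of 31907 genes in the count table, 591 had the biotype snoRNA, and the 113 of these with a mean raw count of at least 20 over the 48 libraries are described here. The members were chosen by their mean raw count, so their counts are given as a description. Just inside the limit were SNORD8 with a mean count of 22.6, a SNORA63 row with 21.0 and a SNORD18 row with 20.8. Just outside it were a row without a symbol and a SNORD33 row, both at 19.8, and SNORD37 at 19.2. All 113 passed the filter on low counts used before testing, and 112 of them had at least 1 count in each of the 48 libraries.

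The cells were primary chondrocytes of pig femoral cartilage, cast in 2% agarose as engineered cartilage. At 3 h and at 9 h after the onset of stimulation, 6 groups of 4 constructs were sampled. These were free-swelling vehicle controls (DMSO), constructs given GSK101 (1 nM), an agonist of the calcium channel TRPV4, constructs given the TRPV4 antagonist GSK205 (10 uM in the design text, millimolar in the treatment notes), constructs under physiologic loading (cyclic compression, 10% deformation at 1 Hz, for 3 h), constructs loaded in the presence of GSK205, and constructs given the inflammatory cytokine IL-1 (1 ng/mL). All were of wild-type, non-transfected cells. A further 72 libraries of a PIEZO1 experiment were made with another, low-input kit and serve here only for the level of snoRNA reads.

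SnoRNAs are short nuclear RNAs, most of them cut from introns of other genes. Those of the C/D class pair with ribosomal or spliceosomal RNA and guide 2′-O-methylation by fibrillarin, in a particle with NOP56, NOP58 and SNU13. Those of the H/ACA class guide the change of uridine to pseudouridine by dyskerin (DKC1), with NHP2, NOP10 and GAR1. A few, such as U14, U22 and U17, are needed for the cleavage of the ribosomal precursor, and scaRNAs act on spliceosomal RNAs in Cajal bodies. They lack a poly(A) tail and are far shorter than a messenger RNA, so their recovery depends on how RNA is purified and made into libraries.

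The 48 libraries held 20651530 to 80223797 counts each. All 8 chondrocyte markers examined were present, with a summed level of 61716 to 117993 CPM (counts scaled to a library size of 1e+06). Fibroblast markers summed to 339 to 1101 CPM, those of leukocytes to 1.71 to 7.14 CPM and those of endothelium to 2.54 to 5.77 CPM. As molecule the labels have polyA RNA, while the protocol describes ribosomal depletion and random priming for these libraries. Whether the 4 constructs of a group stem from different animals is not stated, and the p-values therefore reflect no more than the spread of these samples, which may be technical. In bulk RNA, fewer snoRNA-rich cells and less snoRNA per cell cannot be told apart.

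By name, 44 of the 113 snoRNAs were H/ACA, 35 were C/D and 2 were scaRNAs (SCARNA10 and SCARNA12), and 32 had no symbol and stayed unclassed. The C/D members took 46.8% of all counts on the 113, the H/ACA members 38.9%, the scaRNAs 11.6% and the unclassed members 2.69%. A single C/D snoRNA, SNORD17, which guides methylation of 28S ribosomal RNA, held 43.1% of these counts, and the 10 members with the most counts held 90.4%. The others of these 10 were 2 rows named SNORA73 (U17, an H/ACA RNA of early ribosomal processing), SCARNA10 and SCARNA12 (both guides for spliceosomal RNA), the H/ACA members SNORA53, SNORA74 (U19), SNORA48 and SNORA57, and SNORD22 (U22, a C/D RNA of ribosomal processing). Of the snoRNAs of ribosomal processing, members carried the names of U14 (1 row), U22 (2 rows) and U17 (2 rows), and none that of U3, U8 or U13. The symbol was shared with another row for 26 members, whose reads could be split between near-identical copies. Where such a member is named with values, the identifier is given at first mention.

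The 113 snoRNAs took 0.0696 to 0.811% of the counts of a library, an 11.7-fold range with a median of 0.449%. In the 72 PIEZO1 libraries the same rows took 0.00523 to 0.0124%. The library with the lowest share still held 43684 snoRNA counts, and its 95% Wilson interval, 0.0689 to 0.0703%, covers counting error only. With DMSO the shares were 0.431, 0.518, 0.504 and 0.284% at 3 h and 0.592, 0.450, 0.448 and 0.700% at 9 h. With GSK101 they were 0.0696, 0.250, 0.127 and 0.194% at 3 h and 0.658, 0.492, 0.481 and 0.539% at 9 h. The 4 GSK101 libraries of 3 h all lay below the 4 DMSO libraries of that time, and at 9 h the 2 groups overlapped.

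With IL-1 the shares were 0.793, 0.711, 0.316 and 0.777% at 3 h and 0.211, 0.352, 0.545 and 0.402% at 9 h. Under loading they were 0.265, 0.250, 0.255 and 0.446% at 3 h and 0.811, 0.339, 0.290 and 0.314% at 9 h. In both groups 1 library stood away from the other 3 of its time: replicate 3 was low among the IL-1 libraries of 3 h, replicate 4 was high among the loaded ones of 3 h, and replicate 1 was high among those of 9 h. With GSK205 the shares were 0.521, 0.276, 0.548 and 0.721% at 3 h and 0.468, 0.327, 0.459 and 0.553% at 9 h. With loading and GSK205 together they were 0.760, 0.380, 0.524 and 0.379% at 3 h and 0.216, 0.570, 0.285 and 0.611% at 9 h. Both of these groups overlapped the DMSO libraries of their time.

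**Figure D1:**
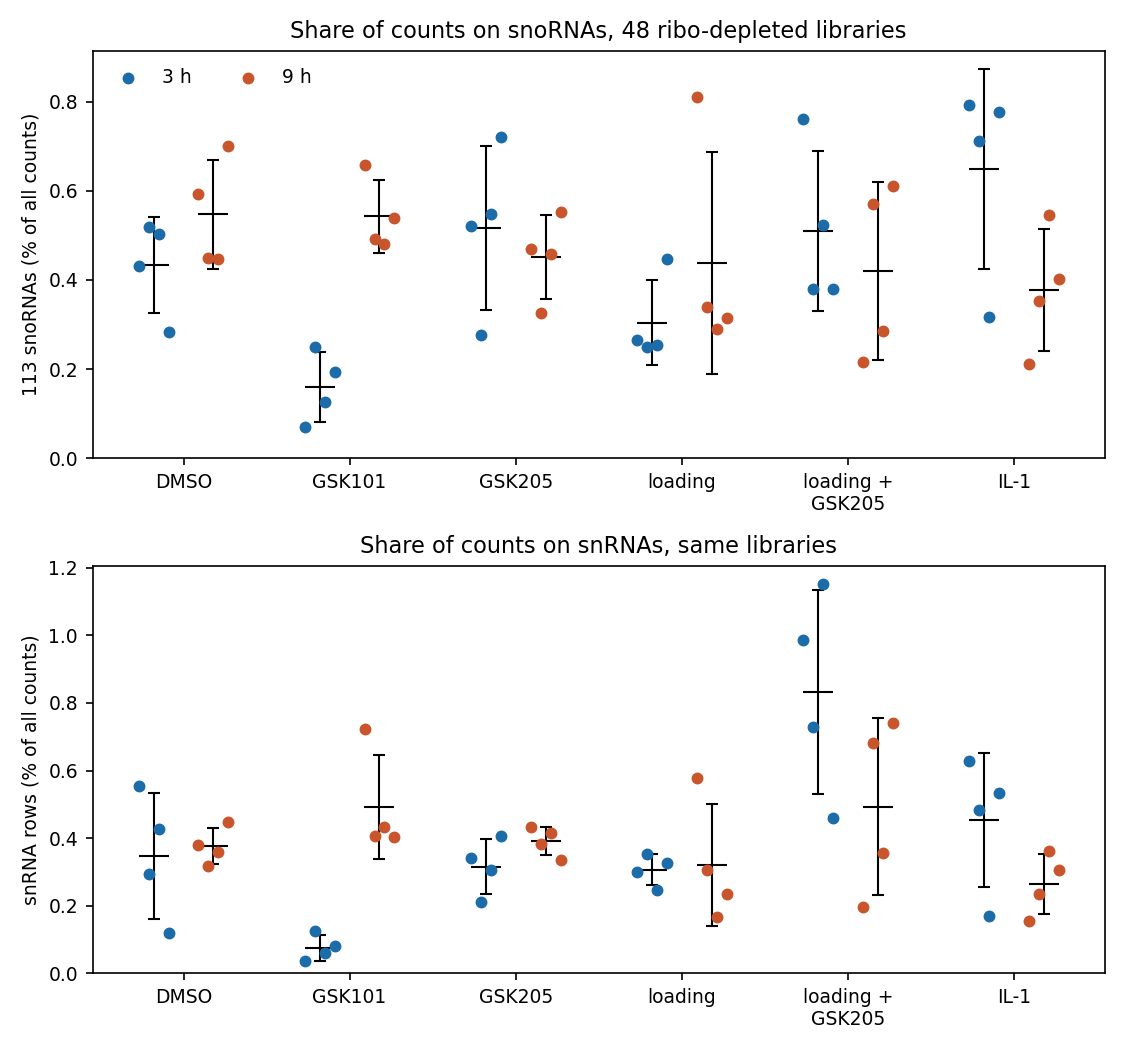
Percent of all counts on the 113 snoRNAs (top) and on all snRNA rows (bottom) in each of the 48 libraries, by treatment (x axis), at 3 h (blue) and 9 h (orange). Points are libraries, the short bar is the mean and the whiskers 1 SD (n = 4); the 4 GSK101 libraries of 3 h, at 0.0696 to 0.250% snoRNA, lie below all 4 DMSO libraries of that time.

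Other traits of a library were set beside its snoRNA share. In 8 of the 12 groups the library lowest in snoRNA share was also lowest in the share of snRNA (the short RNAs of the spliceosome), and in 8 the highest in one was the highest in the other. The library lowest in snoRNA share was also lowest in the share of the biotype misc_RNA in 8 groups. The same held for the biotypes ribozyme and scaRNA in 7 groups each. In 4 of the 12 groups the library lowest in snoRNA share was the highest in the share of mitochondrial ribosomal RNA. With 4 libraries in a group, some such matches arise by chance. The GSK101 libraries of 3 h held 62677053 to 80223797 counts against 20651530 to 29904509 for DMSO. Their snRNA share was 0.0349 to 0.126% against 0.118 to 0.553%, and the share of mitochondrial ribosomal RNA was 0.807 to 3.04% against 0.334 to 0.868%. Of 70 snRNA rows tested, 36 fell and 2 rose with GSK101 at 3 h, and all 3 rows of the biotype ribozyme fell. Of all genes tested 18% fell and 22% rose. The part of these traits in the snoRNA result was not tested.

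With GSK101 at 3 h the snoRNAs had the lowest mean share of the 12 groups. Of the 113 members, 51 fell and 6 rose against DMSO, where 18% of all 16562 genes tested fell and 22% rose, 40% in all (edgeR's quasi-likelihood test, Benjamini-Hochberg adjusted p under 0.05). The median log2 fold change of the members was -0.73, against 0.01 over all genes tested. Of the H/ACA members 25 of 44 fell and 2 rose. Of the C/D members 8 of 35 fell and 1 rose, of the 32 unclassed members 17 fell and 3 rose, and the median change was -1.0 for H/ACA and -0.11 for C/D. Of the 35 members with a mean count of at least 100, 30 fell and none rose. Of the 78 with fewer counts 21 fell and 6 rose, and 29 of the 35 C/D members were among these 78.

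**Figure D2:**
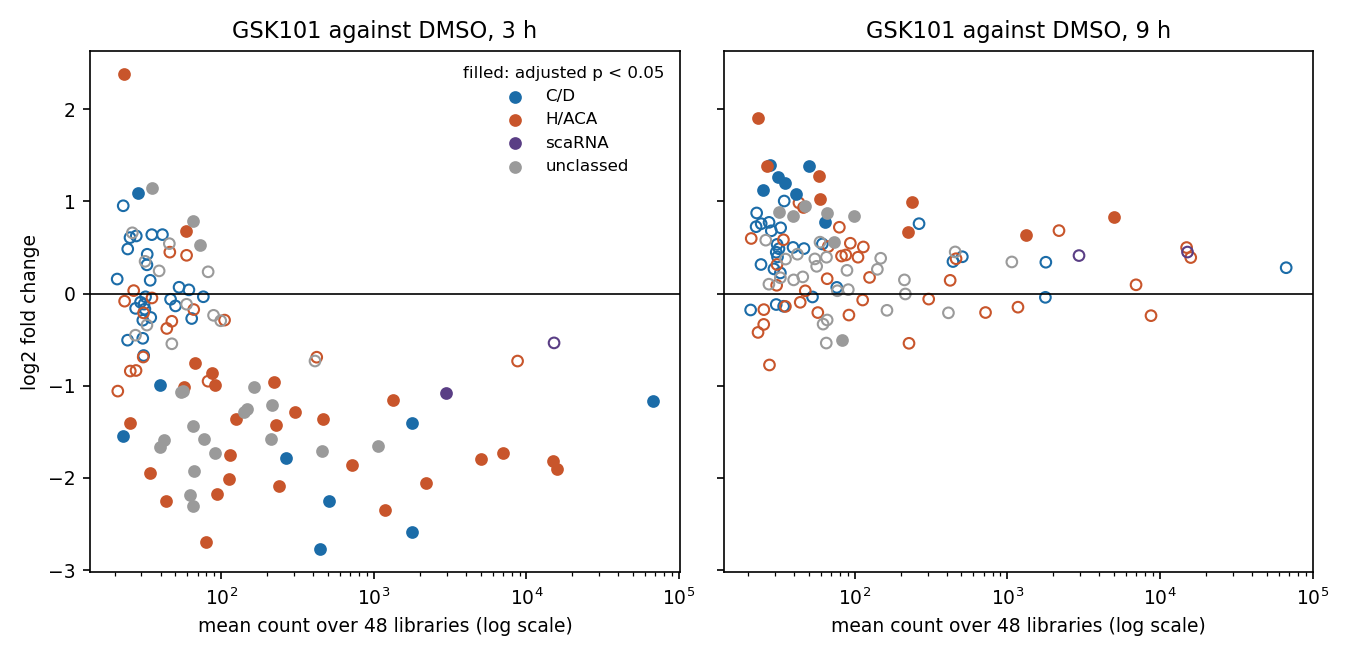
Log2 fold change of the 113 snoRNAs with GSK101 against DMSO at 3 h (left) and 9 h (right), by mean count over 48 libraries (log scale), coloured by class; filled points passed the test and open ones did not. At 3 h the 35 members with a mean count of at least 100 all lie below 0, with 30 called lower, and at 9 h 22 members were called higher and 1 lower.

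Among the snoRNAs of ribosomal processing, those with many counts fell with GSK101 at 3 h. The levels of SNORD22 (ENSSSCG00000029549; U22) in CPM were 55.4, 54.9, 52.7 and 45.4 with DMSO and 2.90, 15.9, 6.63 and 8.83 with GSK101. No GSK101 library reached the lowest DMSO library, and the log2 fold change was -2.58 (SE 0.35, adjusted p = 7.3e-07, edgeR quasi-likelihood test). SNORA73 (ENSSSCG00000034185; U17) had 340, 862, 411 and 431 CPM with DMSO and 78.2, 237, 91.4 and 132 CPM with GSK101, again without overlap, and fell by 1.90 (SE 0.32) on the log2 scale. Its other row (ENSSSCG00000037630) fell by 1.81 (SE 0.29). The second SNORD22 row (ENSSSCG00000025513), with far fewer counts, had a log2 fold change of 0.14 (SE 0.36) and SNORD14 (ENSSSCG00000018524; U14) one of 0.61 (SE 0.46), and neither passed the test.

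The most counted member, SNORD17, had 1934, 1597, 2331 and 672 CPM with DMSO and 220, 1096, 589 and 961 CPM with GSK101 at 3 h. Here the groups overlapped, because DMSO replicate 4 lay below 2 of the GSK101 libraries. SNORD17 fell by 1.17 on the log2 scale (SE 0.43, adjusted p = 0.030, edgeR quasi-likelihood test). The largest fall was that of SNORD94, a C/D guide for the U6 spliceosomal RNA, from 10.9, 20.7, 12.8 and 11.8 CPM to 1.01, 3.74, 1.79 and 1.63 CPM. Its log2 fold change was -2.77 (SE 0.39), with no overlap of the groups. SNORA47, an H/ACA member, fell by 2.70 (SE 0.44), from 1.38 to 4.00 CPM with DMSO to 0.0347 to 0.721 CPM with GSK101.

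Of the 2 scaRNAs, SCARNA12 fell by 1.08 (SE 0.23) with GSK101 at 3 h. SCARNA10 had a log2 fold change of -0.54 (SE 0.38) and was not called, with 293, 441, 394 and 231 CPM under DMSO and 98.0, 391, 140 and 295 CPM under GSK101. The H/ACA members SNORA57, SNORA48 and SNORA74 (ENSSSCG00000018891) fell by 2.05, 1.79 and 1.73. SNORA53, of the same class and with more counts than these 3, had a log2 fold change of -0.73 (SE 0.44) and was not called.

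Of the 6 members that rose with GSK101 at 3 h, the H/ACA member SNORA80B met the count limit only through these libraries, with a mean count of 23.1 over all 48 libraries and 14.3 without the GSK101 libraries of 3 h. Its level, 0.0909, 0.241, 0.417 and 0.577 CPM with DMSO and 1.73, 1.27, 2.28 and 1.78 CPM with GSK101, is therefore given as a description. In all, 3 of the 113 members would fall under the limit without 1 of the 12 groups. A member without a symbol (ENSSSCG00000037982) rose by 1.15 (SE 0.32), from 0.483 to 0.909 CPM to 1.01 to 2.10 CPM.

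Scaling to the snoRNAs themselves gave another picture of the split. When the library factors were computed from the 113 members alone, so that a change is one relative to the other snoRNAs, the median of all genes moved to 0.94 on the log2 scale at 3 h with GSK101. On that scale 33 members were higher and 26 lower, against 6 and 51 on the scale of all genes. The 26 lower ones were lower on both scales, and so were the 6 higher ones higher on both. The new factors shifted changes upward, so this overlap follows largely from the scaling and is no separate check. Among the 33 relatively higher members 16 were C/D and 6 H/ACA, and among the 26 relatively lower ones 5 were C/D and 14 H/ACA. On both scales more H/ACA than C/D members were called lower. However, 19 of the 44 H/ACA but 6 of the 35 C/D members had a mean count of at least 100. The part of the count level in this split was not tested.

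At 9 h with GSK101 the fall was not seen. Of 113 members 22 rose and 1 fell, where 29.3% of 16540 genes tested rose and 33% fell, 62.3% in all, and the median change was 0.39 against -0.07 over all genes. On the scale of the snoRNAs alone 3 were higher and 2 lower. The rises comprised 9 H/ACA, 7 C/D and 6 unclassed members. SNORA80B, which met the count limit only through the GSK101 libraries of 3 h, had a log2 fold change of 1.90 (SE 0.59). Its levels were low, at 0.319, 0.340, 0.142 and 0.187 CPM under DMSO and 1.05, 0.490, 1.43 and 0.915 CPM under GSK101. SNORD60, a C/D member, rose by 1.39 (SE 0.42, adjusted p = 0.0043, edgeR quasi-likelihood test), from 0.284 to 0.674 CPM to 2.57, 0.981, 1.00 and 1.07 CPM, and without GSK101 replicate 1, the highest, its adjusted p was 0.054. SNORD14 (ENSSSCG00000018524) rose by 1.12 (SE 0.42), from 0.284 to 0.780 CPM to 0.578 to 1.96 CPM. The single fall was that of a member without a symbol (ENSSSCG00000018303), which dropped by 0.50 (SE 0.20) and lost its call without any of DMSO replicates 2 and 4 (adjusted p = 0.15 and 0.081) or GSK101 replicates 2, 3 and 4 (0.089, 0.061 and 0.11).

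The difference between the times was tested directly in 1 model of both times. The GSK101 effect was higher at 9 h than at 3 h for 54 members and lower for none, where 23.1% of 17447 genes were higher and 22.8% lower, 45.8% in all. On the scale of the snoRNAs alone the split was 15 higher and 14 lower. Both this difference and the comparison at 3 h use the same libraries of 3 h. At 9 h itself, 4 of the 51 members that fell at 3 h were called higher. The largest difference was that of SNORA47, at 3.46 (SE 0.63, adjusted p = 8.3e-06, edgeR quasi-likelihood test). At 9 h it had 2.98, 2.28, 1.31 and 2.28 CPM with DMSO and 7.46, 2.38, 2.53 and 2.74 CPM with GSK101, where it was not called. Between DMSO at 9 h and DMSO at 3 h no member rose and 1 fell, where 10.4% of all genes rose and 11.8% fell. On the scale of the snoRNAs alone that split was 1 and 1. The fall was that of a member without a symbol (ENSSSCG00000042218), at -0.89 (SE 0.24), with an adjusted p of 0.095 without DMSO replicate 4 of 3 h. The count was 2 without any of DMSO replicates 1, 3 and 4 of 3 h.

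**Figure D3:**
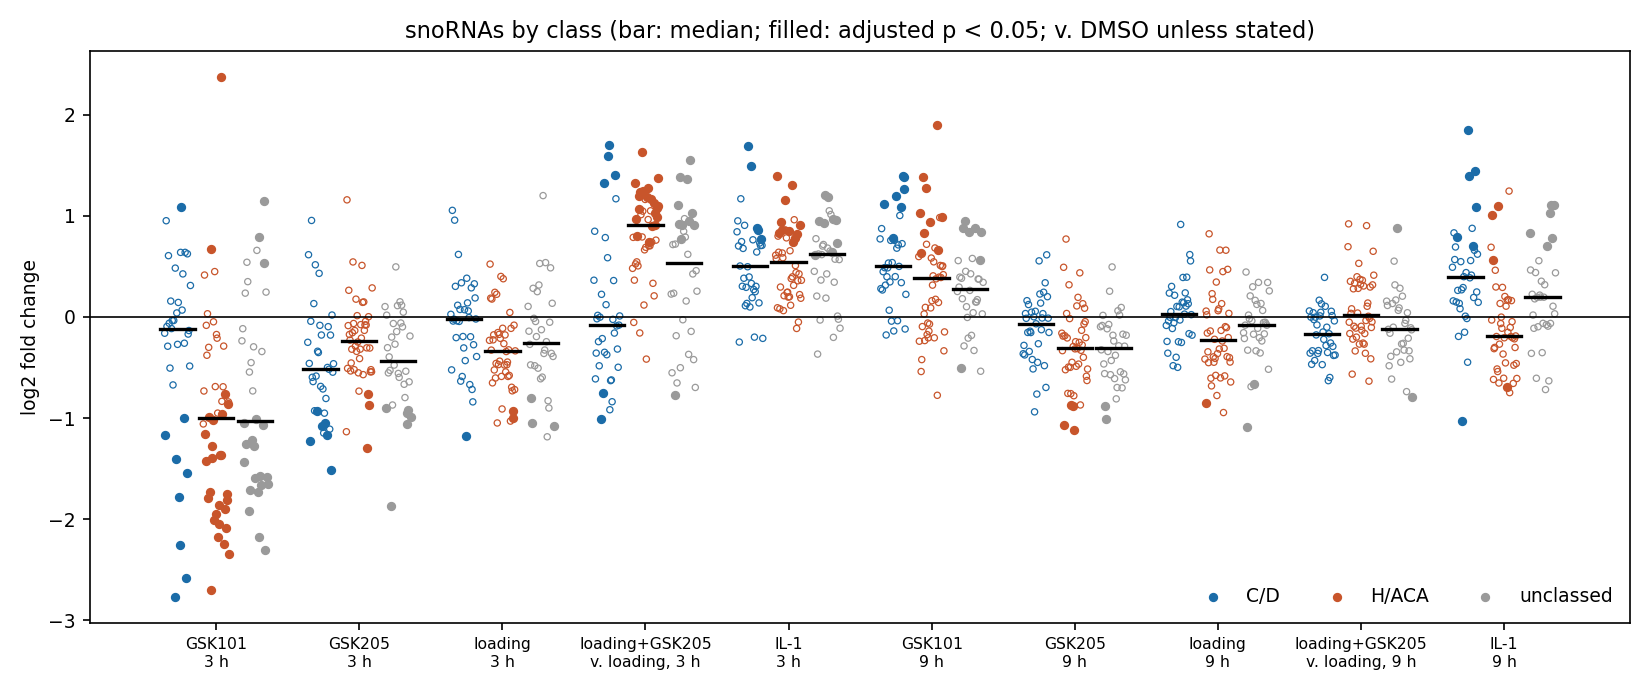
Log2 fold change of the snoRNAs in 10 comparisons (x axis), in columns for C/D (blue, 35), H/ACA (orange, 44) and unclassed members (grey, 32), with the median as a bar; filled points passed the test, and the 2 scaRNAs are not drawn. The H/ACA median was -1.0 with GSK101 at 3 h, 0.54 with IL-1 at 3 h and 0.91 for loading with GSK205 against loading at 3 h.

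With IL-1 at 3 h 26 of the 113 members rose and none fell, where 18.5% of genes tested rose and 13.7% fell, 32.2% in all. The share of members that rose was thus near that of all genes, while the median change was 0.59 against 0.01 over all genes. On the scale of the snoRNAs alone 2 were higher and 2 lower. The rises comprised 11 H/ACA, 5 C/D and 9 unclassed members and SCARNA10. SNORD97, a C/D guide for a transfer RNA, had 17.7, 61.2, 37.2 and 45.7 CPM with DMSO and 192, 117, 67.3 and 147 CPM with IL-1. All 4 IL-1 libraries lay above the DMSO libraries, and the log2 fold change was 1.70 (SE 0.45, adjusted p = 0.0035, edgeR quasi-likelihood test). Both SNORD22 rows rose, by 0.86 (SE 0.32) for the row with more counts and by 1.49 (SE 0.35) for the other. SNORA57 rose by 1.30 (SE 0.29) and SCARNA10 by 1.18 (SE 0.38), while SNORD17 changed by 0.95 (SE 0.43) and was not called, with 917 CPM in IL-1 replicate 3 and 3772 to 3949 CPM in the other 3. Without IL-1 replicate 1, which had the highest snoRNA share of its group, 16 members were called.

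At 9 h with IL-1, 15 members rose and 2 fell, where 30.6% of genes tested rose and 34.5% fell, 65.1% in all, and the median change was 0.14. On the scale of the snoRNAs alone 5 were higher and 5 lower. The C/D median was 0.40 and the H/ACA median -0.19. The largest rise was that of SNORD26, a C/D member, with 0.106, 0.729, 0.142 and 1.09 CPM under DMSO and 1.44, 2.20, 2.42 and 1.82 CPM under IL-1, without overlap. Its log2 fold change was 1.85 (SE 0.40, adjusted p = 1.7e-04, edgeR quasi-likelihood test), and SNORD60 rose by 1.44 (SE 0.41). SNORD94 fell by 1.03 (SE 0.39), from 13.1 to 20.3 CPM to 4.76, 7.71, 10.1 and 9.00 CPM, but its adjusted p was 0.065 without DMSO replicate 4 and 0.072 without IL-1 replicate 1. SNORA23, the other fall, dropped by 0.69 (SE 0.28) and was not called without DMSO replicate 1 or 4 (adjusted p = 0.065 and 0.060) or IL-1 replicate 1 or 2 (0.14 and 0.095).

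Of the 26 members that rose with IL-1 at 3 h, 5 also rose at 9 h. Tested directly, the IL-1 effect was higher at 9 h for 1 member and lower for 7, where 18.5% of all genes were higher and 20.4% lower, 38.8% in all, and none was called on the scale of the snoRNAs alone. The count of 8 changed with single libraries. It was 18 without IL-1 replicate 3 of 3 h, 2 without IL-1 replicate 1 of either time or DMSO replicate 4 of 3 h, 3 without IL-1 replicate 4 of 3 h, 4 without IL-1 replicate 2 of either time, and 5 without DMSO replicate 1 of 3 h or DMSO replicate 3 of 9 h. The largest difference was that of a SNORA62 row (ENSSSCG00000028403), at -1.67 (SE 0.57), with an adjusted p of 0.062 without IL-1 replicate 4 of 3 h. The GSK101 and IL-1 comparisons use the same DMSO libraries.

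Few snoRNAs were called under loading. At 3 h 7 members (6.19%) fell and none rose, where 2.3% of genes tested fell and 7.86% rose, 10.2% in all. The median change was -0.23, against 0.01 over all genes. Scaling on the snoRNAs alone left 1 lower. SNORD15 (ENSSSCG00000025715; U15), a C/D guide for 28S ribosomal RNA, had 13.5, 33.2, 12.9 and 16.2 CPM with DMSO and 9.33, 9.45, 6.07 and 8.13 CPM under loading. The groups did not overlap, and the log2 fold change was -1.18 (SE 0.29, adjusted p = 0.0075, edgeR quasi-likelihood test), with an adjusted p of 0.078 without DMSO replicate 2. SNORA73 (ENSSSCG00000037630) fell by 0.93 (SE 0.29) and SCARNA12 by 0.86 (SE 0.23). The next largest fall after SNORD15 was that of ENSSSCG00000042218, at -1.08 (SE 0.22). Without DMSO replicate 2 or loading replicate 3 there were 2 calls, and without loading replicate 2 there were 3.

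At 9 h 3 members fell under loading and none rose, where 11.2% of genes tested fell and 12.5% rose, and none was called on the scale of the snoRNAs alone. The largest fall was that of ENSSSCG00000018303, from 1.81, 3.04, 2.06 and 2.71 CPM to 1.14, 1.17, 1.08 and 1.19 CPM, at -1.09 (SE 0.20, adjusted p = 1.3e-04, edgeR quasi-likelihood test). All 4 loaded libraries lay below the DMSO libraries and close together. SNORA53 fell by 0.85 (SE 0.31), with an adjusted p of 0.048 that rose to between 0.057 and 0.121 without any library of the 2 groups other than loading replicate 1. Without that replicate, which had the highest snoRNA share of the 48 libraries, 15 members were called. The difference between the times was called for 1 member, ENSSSCG00000042218 (1.37, SE 0.33), where 4.99% of all genes were higher and 5.1% lower, and on the scale of the snoRNAs alone 1 other call was in the lower direction. The count was 4 without loading replicate 3 of 9 h, 3 without DMSO replicate 1 of 3 h and 2 without loading replicate 2 of 3 h.

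With GSK205 alone 15 members (13.3%) fell and none rose at 3 h, where 12.5% of genes tested fell and 14.6% rose. The share of members that fell was thus near that of all genes. The median change of the members was -0.32, and the scale of the snoRNAs alone gave 1 higher and 2 lower. The largest fall, -1.87, was that of a member without a symbol. Here 6 of the 15 were C/D, and the class medians were -0.52 for C/D and -0.24 for H/ACA. SNORD38B, a C/D member, had 0.682, 1.29, 0.869 and 0.577 CPM with DMSO and 0.252, 0.346, 0.340 and 0.239 CPM with GSK205. It fell by 1.51 (SE 0.38, adjusted p = 0.0028, edgeR quasi-likelihood test) with no overlap. SNORD33 (ENSSSCG00000025540) fell by 1.08 (SE 0.34). SNORD24 (ENSSSCG00000019612), another C/D member, fell by 0.93 (SE 0.22).

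At 9 h 6 members fell with GSK205 and none rose, where 9.15% of genes tested fell and 12.1% rose, and none was called on the scale of the snoRNAs alone. The largest fall was that of SNORA49, an H/ACA member, from 0.874 to 1.49 CPM to 0.446 to 0.665 CPM, at -1.12 (SE 0.38), and SNORA46 fell by 1.07 (SE 0.38). SNORA49 was not called without DMSO replicate 1 or 3 or GSK205 replicate 1, 2 or 3 (adjusted p = 0.050 to 0.11), nor SNORA46 without DMSO replicate 3 or 4 or GSK205 replicate 2, 3 or 4 (0.053 to 0.18). Without GSK205 replicate 2 the count was 1, without GSK205 replicate 3 it was 2, and without DMSO replicate 3 or 4 it was 3. The GSK205 effect was higher at 9 h than at 3 h for 4 members and lower for none, where 11.8% of all genes were higher and 8.69% lower, and SNORD38B differed most (2.15, SE 0.50). None was called on the scale of the snoRNAs alone. That count was 7 without DMSO replicate 1 of 3 h, 1 without GSK205 replicate 1 of 3 h, and 2 without GSK205 replicate 3 of 3 h, GSK205 replicate 2 or 4 of 9 h or DMSO replicate 2 of 9 h.

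Loading in the presence of GSK205 differed from loading alone at 3 h. Of 113 members 34 were higher and 3 lower, where 7.11% of genes tested were higher and 8.16% lower, and the median was 0.62 against -0.02 over all genes. On the scale of the snoRNAs alone the split was 7 higher and 2 lower. Of the H/ACA members 20 of 44 were higher and none lower, against 4 of 35 C/D members higher and 2 lower. SNORD15 (ENSSSCG00000025715) had 9.33, 9.45, 6.07 and 8.13 CPM under loading and 43.0, 22.4, 28.3 and 14.8 CPM with GSK205 added. All 4 libraries with GSK205 lay higher, at a log2 fold change of 1.70 (SE 0.29, adjusted p = 1.0e-04, edgeR quasi-likelihood test). SNORD43, a C/D member, was lower by -1.01 (SE 0.35, adjusted p = 0.045), and lost its call without any of 6 of the 8 libraries. The count of 37 was 11 without loading with GSK205 replicate 1, 23 without its replicate 3, 17 without loading replicate 1 and 18 without loading replicate 3. The snRNA share was 0.461 to 1.15% with loading and GSK205 and 0.246 to 0.353% under loading, with 15 of 70 snRNA rows higher and none lower, and its part in the snoRNA result was not tested.

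Against GSK205 alone at 3 h, loading with GSK205 had 26 members higher and 1 lower, where 7.58% of genes tested were higher and 4.35% lower, and on the scale of the snoRNAs alone 5 and 1. SNORD33 (ENSSSCG00000025540) had 3.15, 1.59, 2.81 and 6.63 CPM with GSK205 and 24, 17.4, 17.1 and 8.92 CPM when loading was added, without overlap, at 2.24 (SE 0.33, adjusted p = 1.2e-05, edgeR quasi-likelihood test). The count of 27 was 12 without GSK205 replicate 2 and 12 without loading with GSK205 replicate 1.

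At 9 h loading with GSK205 against loading gave 1 member higher and 1 lower, where 2.11% and 1.99% of genes tested were called, 4.1% in all. The higher one had no symbol (ENSSSCG00000020580; 9.62, 8.19, 6.93 and 5.84 CPM under loading, 10.5, 16.0, 14.5 and 15.9 CPM with GSK205 added) and a log2 fold change of 0.88 (SE 0.16). The lower one, ENSSSCG00000042218, was not called without loading replicate 1 or 2 or without any of the 4 libraries with GSK205 (adjusted p = 0.050 to 0.16), and 1 call was left without loading replicate 1 or 2 or without loading with GSK205 replicate 2, 3 or 4. Against GSK205 alone at 9 h, 6 members were higher and 2 lower, where 8.82% and 9.2% of genes tested were called, led by SNORA46 at 1.27 (SE 0.38). That count was 5 without GSK205 replicate 2 or 3 or loading with GSK205 replicate 3 or 4, and 3 without loading with GSK205 replicate 2, and SNORA46 was not called without GSK205 replicate 3 (adjusted p = 0.066) or loading with GSK205 replicate 2 (0.12). None was called on the scale of the snoRNAs alone in either comparison at 9 h.

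Most of these snoRNAs lie in introns, so the gene that hosts each one gives a measure that did not enter the choice of members. Hosts were taken from what is known of the human genes and not from a pig annotation, and 30 snoRNAs with 26 measured hosts were paired in this way. With GSK101 at 3 h, 12 of the 30 snoRNAs fell and 1 rose, and none of the 12 had a host that fell, where 18% of all genes fell. In 6 of the 12 the host rose, where 22% of all genes rose, and in 6 it was not called. The median change was -0.61 for the snoRNAs and -0.04 for their hosts. EIF4A1, the host of SNORA48 and a helicase of translation initiation, rose by 0.21 while SNORA48 fell by 1.79. IPO7, the host of SNORA23 and a nuclear import receptor, rose by 0.34 while SNORA23 fell by 1.86. The host of SNORD94, PTCD3, had a log2 fold change of -0.09 and was not called.

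**Figure D4:**
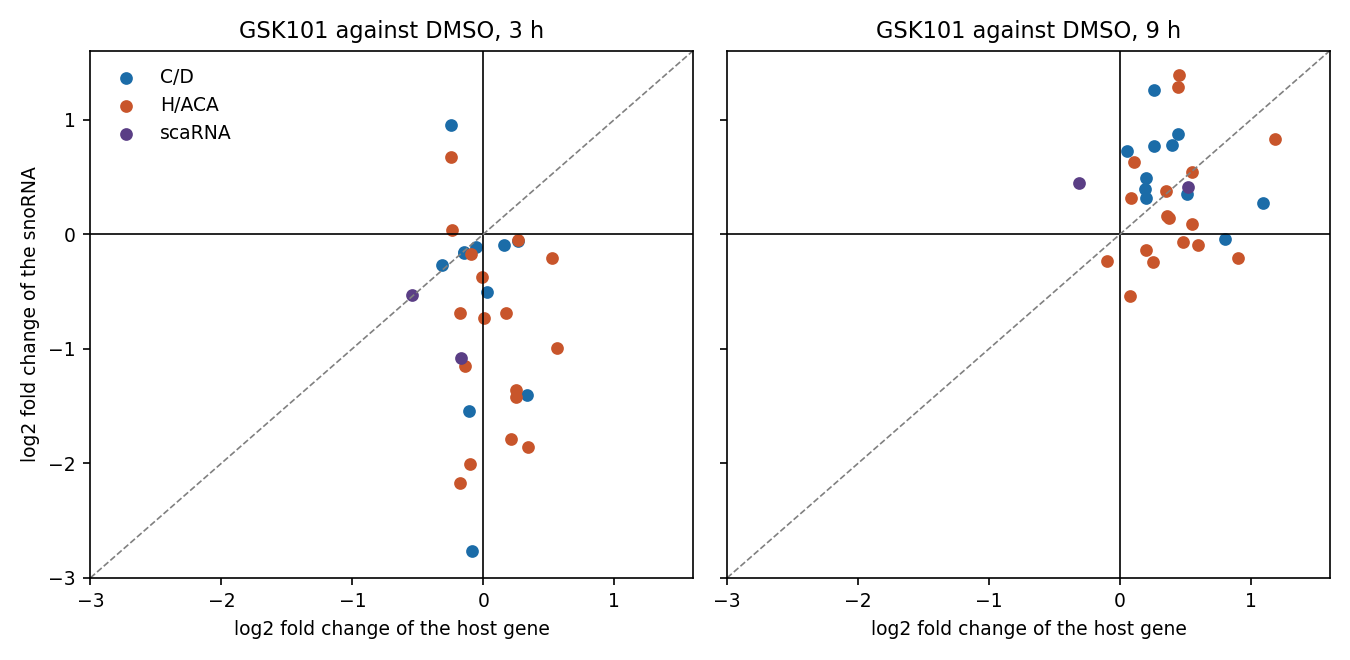
Log2 fold change of 30 snoRNAs (y axis) against that of the gene hosting each one in human (x axis), with GSK101 against DMSO at 3 h (left) and 9 h (right), coloured by class; the dashed line marks equal change. At 3 h the hosts lie between -0.55 and 0.56 while snoRNAs reach -2.77, and at 9 h the medians are 0.36 for snoRNAs and 0.37 for hosts.

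RPS12, a ribosomal protein gene that hosts SNORA33 and SNORD101, had a log2 fold change of -0.24 with GSK101 at 3 h and was called lower, while SNORA33 rose by 0.68 (SE 0.26) and SNORD101 had a change of 0.95 (SE 0.40) that did not pass the test. At 9 h 20 of the 26 hosts rose with GSK101, where 29.3% of all genes rose. Of the 6 paired snoRNAs that rose, 5 had such a host. With IL-1 at 9 h 24 of the 26 hosts rose, where 30.6% of all genes rose. Of the snoRNAs paired with these hosts, 4 were called higher and 2 lower. For loading at 9 h 18 of the 26 hosts rose, where 12.5% of all genes rose, and none of the 30 paired snoRNAs rose.

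The proteins of the snoRNA particles were measured too. With GSK101 at 3 h, FBL (fibrillarin, the methylase of C/D particles) and NOP58 rose by 0.43 and 0.36, and GAR1 of the H/ACA particle rose by 0.36. NOP56, SNU13, DKC1 and NOP10 did not pass the test at 3 h, and no gene of the 2 particles fell. Of 13 particle assembly genes 1 rose and 4 fell, among them WRAP53, which targets scaRNAs to Cajal bodies, at -0.41. Of 8 measured genes of snoRNA maturation and turnover 2 rose (MTREX, an exosome helicase, and PHAX, a transport factor), and none fell. At 9 h with GSK101, 11 of the 13 assembly genes rose, as did 3 of the 4 C/D proteins, with NOP56 at 1.09, and 2 of the 3 measured H/ACA proteins, with DKC1 at 0.92. Of 18 genes of RNA polymerase I and the nucleolus 6 rose and 4 fell at 3 h, and 14 rose and 1 fell at 9 h. Beside all these lists, 22% of all genes tested rose and 18% fell with GSK101 at 3 h. At 9 h 29.3% rose and 33% fell. NPM1, a nucleolar chaperone, rose by 0.34 at 3 h and 1.00 at 9 h, and DDX21, a nucleolar helicase, by 0.40 and 1.29.

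Libraries of 1 group differed more in snoRNAs than in most genes. The pooled standard deviation of log2 CPM within groups had a median of 0.50 over the 113 members and 0.18 over all 17447 genes tested, and all 113 lay above the latter. None of the 113 lay above the 95th percentile of all genes, 0.88. Protein-coding genes had a median of 0.14, while snRNAs had 0.61 and long noncoding RNAs 0.62. Their levels differed as well. The median of the mean log2 CPM was 3.82 for protein-coding genes, -0.58 for snRNAs and -1.19 for long noncoding RNAs. It was -0.33 for the 187 snoRNA rows that passed the filter. The part of the level in these spreads was not tested. Class by class the median was 0.49 for C/D and 0.54 for H/ACA. When the libraries were scaled on the snoRNAs alone, it was 0.52 for C/D and 0.38 for H/ACA, and that of all genes was 0.39, with 76 of the 113 members above it. The H/ACA median was lower with this scaling and the C/D median was not. By count level, the median went from 0.564 to 0.335 for members with a mean count of at least 100. For those with fewer counts it was 0.490 and 0.493. Of the H/ACA members 19 of 44 had a mean count of at least 100, and of the C/D members 6 of 35. The part of the count level in this class difference was not tested.

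The widest spread was that of SNORA58B (0.80), a member with a mean count of 25.3, followed by a member without a symbol (0.79) and SNORA80B (0.76). SNORA53, the fourth, had a mean count of 8742 and a spread of 0.76. The narrowest spread among members with a symbol was that of SNORD24 (ENSSSCG00000019612) at 0.27. Within DMSO at 3 h SNORA53 had 249, 97.4, 238 and 36.9 CPM, a range within 1 group wider than many of the changes between groups. SNORD24 had 2.00, 1.89, 2.57 and 1.67 CPM in the same libraries.

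**Figure D5:**
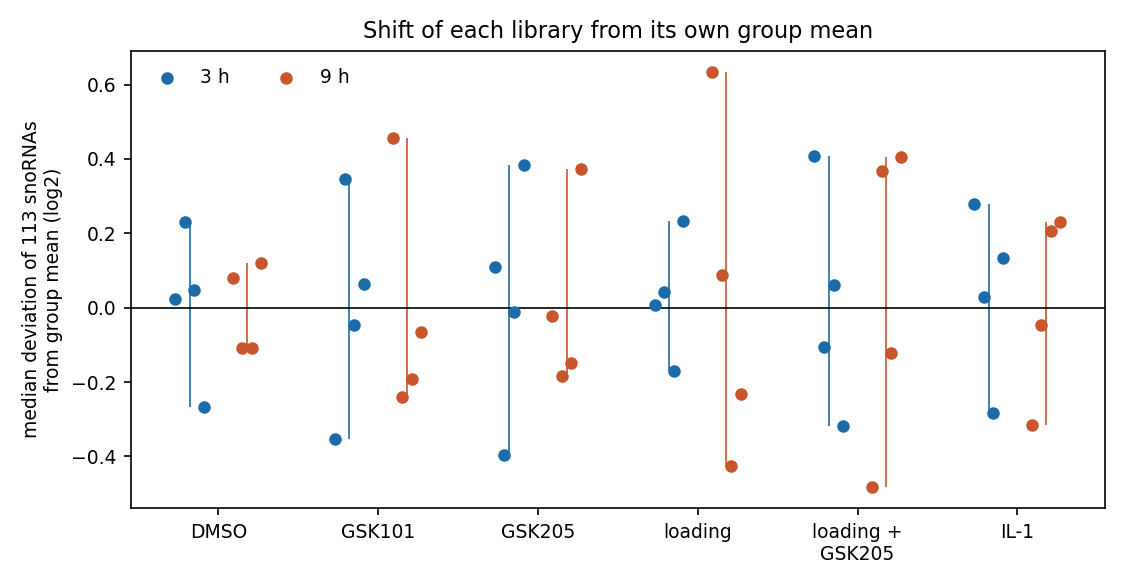
Median deviation of the 113 snoRNAs from their group mean (log2 CPM) in each of the 48 libraries, by treatment, at 3 h (blue) and 9 h (orange); a line joins the lowest and highest of the 4 libraries. The widest range, 1.06, was that of loading at 9 h, where replicate 1 lay at 0.63, and the narrowest, 0.23, that of DMSO at 9 h.

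Some libraries had most snoRNAs on 1 side of the group mean and others did not. Under loading at 9 h, 12 of the 113 members in replicate 1 lay below the group mean and 96 in replicate 3 did so, at median deviations of 0.63 and -0.42. With DMSO at 9 h, 71, 38, 45 and 71 members lay above the group mean in replicates 1 to 4. The range between the lowest and the highest library ran from 0.23 for DMSO at 9 h to 1.06 for loading at 9 h, and was 0.50 for DMSO and 0.70 for GSK101 at 3 h.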

How the data were processed

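RNA was sequenced from 48 libraries of the TRPV4 experiment (12 groups of 4) and 72 of the PIEZO1 experiment. The deposited table holds raw counts per gene, whole numbers without normalization. Per the submitters' processing notes, Trim Galore, STAR and HTSeq were used with the pig build Sscrofa11.1. Not given in the sources used here were their versions, the annotation release and the use of strand. Of 32388 lines 481 repeated an identifier and were removed. Among counts of 1 to 20, 58.2% were even for the members and 70.4% for all genes, and the cause was not tested.

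Counts were tested in R 4.3.3 with edgeR 4.0.16 (TMM scaling, filterByExpr with a minimum count of 10, quasi-likelihood test, Benjamini-Hochberg adjustment over all genes tested, threshold 0.05), with 1 term per group over the 24 libraries of a time, or over 48 for differences between times. CPM are scaled by TMM; spread used log2 CPM with a prior count of 2. The script was tested on simulated data. No 2 replicates agreed within sampling noise (smallest chi-square per degree of freedom 5.12 over 72 pairs). Alternatives were DESeq2 1.42.0, its size-factor scaling (RLE) in edgeR, no filter, TMM over protein-coding genes or over the members alone, thinning, a replicate block, uniquely named members only, and leaving out each library. Class was read from the symbol, which the table gave for 77 members and the gene name table for 4. The text names snoRNAs of ribosomal processing, the 10 members with the most counts, up to 2 called members with the largest change each way for a treatment against DMSO and 1 each way for other comparisons, the 3 members with the widest and the 3 with the narrowest spread, and the 3 rows on each side of the count limit. Other members named were chosen after their values were seen. Members and lists were chosen with earlier results of these data known, and host genes were assigned from human genes in place of an annotation. Sequences, coordinates and lengths of the snoRNAs were not used here.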

Additional observations from a re-analysis of the deposited data

Results flagged for a closer look

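In 46 of 504 groups of 4 values, over the shares and 40 named members, 1 library stood apart from the other 3; chance flags about 1 in 20 groups, and values from 1 library are not independent. Loading replicate 1 at 9 h was the highest of its group in snoRNA share (0.811%), SNORD17 share (0.385%) and CPM of SNORD17 (3601), both SNORA73 rows (724 for ENSSSCG00000034185 and 691 for ENSSSCG00000037630), SCARNA10 (824), SNORA74 (ENSSSCG00000018891; 324), SNORA53 (232) and SNORD97 (80.4). Loading replicate 4 at 3 h was the highest in snoRNA share (0.446%), SNORD17 share (0.211%) and CPM of SNORD17 (2011), SNORA74 (ENSSSCG00000018891; 199), SCARNA12 (69.2), SNORA57 (53.5) and SNORD97 (47.8). GSK101 replicate 1 at 9 h was the highest in CPM of both SNORA73 rows (1080 and 1103), SNORA57 (158), ENSSSCG00000042218 (55.4), SNORD15 (ENSSSCG00000025715; 37.6), SNORA47 (7.46), SNORD60 (2.57) and a member without a symbol (2.89), and the lowest in another without a symbol (3.05). IL-1 replicate 3 at 3 h was the lowest in SNORD17 share (0.0846%) and in CPM of SNORD17 (917).

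At 3 h, single high values were those of SNORD15 (ENSSSCG00000025715; 33.2 CPM, DMSO replicate 2), ENSSSCG00000018303 (4.36 CPM, DMSO replicate 1, and 6.40 CPM, GSK101 replicate 1) and ENSSSCG00000037982 (2.10 CPM, GSK101 replicate 3). With GSK205, replicate 1 was high in SNORD22 (ENSSSCG00000025513; 0.975 CPM) and SNORD43 (0.881 CPM). With loading and GSK205, replicate 1 was high in SNORD97 (88.5 CPM) and in a member without a symbol (3.74 CPM), and replicate 3 was low in SNORA63 (ENSSSCG00000018172; 0.215 CPM). Low values were also those of ENSSSCG00000020580 (7.91 CPM, loading replicate 3) and SNORA63 (ENSSSCG00000018172; 0.711 CPM, IL-1 replicate 4).

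At 9 h, high values were those of SNORA46 (11.7 CPM) and SNORA58B (1.14 CPM) in DMSO replicate 3, SNORA62 (ENSSSCG00000028403; 0.812 CPM, GSK101 replicate 3, and 1.17 CPM, IL-1 replicate 3), and SNORA73 (ENSSSCG00000034185; 920 CPM) and SNORA49 (0.665 CPM) in GSK205 replicate 4. ENSSSCG00000018303 was high in loading with GSK205 replicate 3 (1.30 CPM) and SNORD24 (ENSSSCG00000019612) was low in loading replicate 4 (1.96 CPM).

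Effects that differed between 9 h and 3 h by a test of the difference itself were those of 54 members with GSK101, 8 with IL-1, 4 with GSK205 and 1 with loading. Of all 17447 genes tested, 45.8%, 38.8%, 20.5% and 10.1% were called, in the same order. On the log2 scale the difference was 3.46 for SNORA47 with GSK101 and 2.15 for SNORD38B with GSK205. With IL-1 it was -1.67 for SNORA62 (ENSSSCG00000028403) and 1.17 for a member without a symbol, and with loading it was 1.37 for ENSSSCG00000042218.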

How the results depend on the processing

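Direction and call were checked for the 35 cases named as the largest called change of a comparison. Calls of members named only by other rules were not checked in this way. All 35 of 35 held with RLE scaling and with protein-coding scaling. The call was lost in 4 with DESeq2, 3 without a filter, 3 after thinning and 1 with the replicate block. It was lost in 19 with scaling on the members alone and in 52 of 320 when 1 library was left out. None reversed. The cause of each change below was not tested unless fewer members were counted. Replicate numbers did not pair the samples (correlations of same-numbered deviations from -0.116 to 0.102, none of the comparisons with every one over 0.1), and with the replicate block 57 members were called with GSK101 at 3 h, as without it, and 5 in place of 8 for the IL-1 time difference. With the block the call of SNORA53 under loading at 9 h was lost (adjusted p = 0.062). RLE scaling also gave 5 for the IL-1 time difference, and DESeq2 gave 2 for DMSO over time.

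Scaling on the members alone gave 3 calls for GSK205, 4 for IL-1, 1 for loading, 9 for loading with GSK205 against loading and 6 against GSK205 at 3 h. At 9 h it gave 5 for GSK101, 10 for IL-1, and 0 for GSK205, for loading and for both comparisons of loading with GSK205. It gave 2 for DMSO over time, and for the time differences 29 for GSK101 and 0 for GSK205 and IL-1. Without a filter there were 15 calls for loading at 3 h, 17 for GSK205, 29 for IL-1, 16 for loading, 5 for loading with GSK205 against loading and 16 against GSK205 at 9 h, and 3 for the loading time difference. Over the 55 members with a name of their own, so with fewer members counted, calls were 25 for GSK101, 4 for GSK205, 11 for IL-1, 2 for loading, 13 for loading with GSK205 against loading and 11 against GSK205 at 3 h. At 9 h they were 12, 10, 1, 0 and 4 for GSK101, IL-1, loading and these same 2 comparisons, 0 for DMSO over time, and 21, 3 and 0 for the time differences of GSK101, IL-1 and loading.

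Leaving out 1 library at a time gave 50 to 60 calls for GSK101, 11 to 20 for GSK205, 16 to 32 for IL-1, 2 to 9 for loading, 11 to 40 for loading with GSK205 against loading and 12 to 31 against GSK205 at 3 h. At 9 h the ranges were 16 to 26, 1 to 9, 14 to 18, 2 to 15, 1 to 2 and 3 to 10 in the same order. They were 1 to 2 for DMSO over time and 44 to 59, 1 to 7, 2 to 18 and 1 to 4 for the time differences of GSK101, GSK205, IL-1 and loading. Of 72 share values recomputed 1 moved, the snoRNA share with GSK101 at 9 h, which was 0.625% relative to protein-coding counts. Low counts limit the members near a mean count of 20.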

Other observations

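Other short noncoding RNAs were counted in the same libraries. With GSK101 at 3 h, 8 of 13 rows of the biotype scaRNA fell and none rose, with a median log2 fold change of -0.80, and 11 of 43 miRNA rows fell and 3 rose. Of all genes tested 18% fell and 22% rose. Both mitochondrial ribosomal RNA rows rose, with a median of 1.74. At 9 h with GSK101, 9 of 68 snRNA rows rose and 1 fell, all 3 rows of the biotype ribozyme rose (median 0.77), and 8 of 11 rows of the biotype misc_RNA rose and none fell. Of all genes tested at 9 h, 29.3% rose and 33% fell.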
